A study of Mus musculus with 4 samples.

Results

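DNA replication machinery was examined here as 36 genes, taken by symbol from the 23481 genes of the deposited count table, and every one of them was found and passed the filter on low counts. The genes encode the MCM helicase subunits Mcm2 to Mcm7, the origin recognition and licensing factors Orc1, Orc6, Cdc6 and Cdt1, the helicase activators Cdc45, Gins1 to Gins4 and Mcm10, the polymerase and primase subunits Pola1, Pola2, Prim1, Prim2, Pold1 and Pole, the sliding clamp Pcna with its loader subunits Rfc2 to Rfc5, the single-strand binding proteins Rpa1 and Rpa2, Fen1 and Lig1 for Okazaki fragments, Rrm1, Rrm2 and Tk1 for deoxynucleotides, and Chaf1a and Chaf1b for chromatin assembly. RNA sequencing had been done on 4T1-T cells, which belong to the 4T1 line of mouse mammary carcinoma and in which Asns, the gene of the enzyme that makes asparagine from aspartate, was silenced. One group grew in DMEM without asparagine (2 libraries, A and B) and the other in DMEM with asparagine (2 libraries, A and B). All 4 libraries carried the Asns silencing, how it was done is not stated in the sources, and no library of unsilenced cells was analysed.

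Cells replicate their DNA in steps. In G1, the origin recognition complex, CDC6 and CDT1 load the ring-shaped MCM helicase onto origins, and in S phase CDC45 and the GINS complex convert it into the active helicase. Polymerase alpha with primase starts each strand, RFC loads the PCNA clamp for the polymerases delta and epsilon, RPA covers single strands, FEN1 and LIG1 join Okazaki fragments, and CAF-1 places histones on the new DNA. Many of these genes are known targets of E2F transcription factors, which RB proteins restrain, and their transcripts are widely used as signs of proliferating cells.

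Gene counts ranged from 17977552 to 22581543 in the libraries without asparagine and from 23867011 to 30260582 in those with it. Library A without asparagine stood apart, with 56.6% of its reads outside annotated features and 3.53% of its gene counts on Rn45s, the ribosomal RNA precursor. Those shares were 46.3% to 49.3% and 0.884% to 1.66% in the other 3 libraries. Asns itself had 75.0 and 89.2 CPM (reads per gene relative to the library total, scaled by the TMM method) without asparagine, and 103 and 101 CPM with it. The epithelial markers Epcam, Cdh1, Krt8 and Krt18 had from 888 to 9246 reads in every library, whereas Krt5, a basal keratin, had at most 2. Epcam and the basal keratin gene Krt14 rose without asparagine, by 0.68 ± 0.11 and 2.73 ± 0.17 on the log2 scale (edgeR adjusted p = 0.0368 and 0.00434). Cdh1, Krt8 and Krt18 were not called, at 0.50, -0.13 and -0.021 (adjusted p = 0.106, 0.544 and 0.954), and the part of these shifts in the replication gene values was not tested. Of the markers of other cell types, the 5 fibroblast genes summed to 0.436 and 0.492 CPM without asparagine and 0.588 and 0.567 CPM with it, and the 4 endothelial genes to 1.47 and 0.671 CPM without and 1.60 and 1.37 CPM with it. The leukocyte genes summed to 7.69 and 7.83 CPM without asparagine and 6.81 and 6.87 CPM with it, mostly Cd68, while Cd3e had 0 reads in every library. Among erythroid genes, Hba-a1 and Hbb-b1 had 0 reads, and Alas2 had 10.8 and 4.56 CPM without asparagine and 5.76 and 3.94 CPM with it.

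The replication genes were abundant in both media, and none of the 36 passed the test for a difference between them. With edgeR's quasi-likelihood test and Benjamini-Hochberg adjustment over all 12843 genes tested, at a threshold of 0.05, 0 members were higher and 0 lower without asparagine, where 0.771% and 1.07% of all genes were (1.85% in either direction). That background is low enough that a count of 0 among 36 does not set the members apart. The members together held 3543 CPM in library A and 3728 CPM in library B without asparagine, against 3676 and 3718 CPM with it, so their summed level in library B lay above both libraries with asparagine and that in library A below both. Fold changes (log2, without minus with asparagine) lay between -0.57 for Gins2 and 0.38 for Pold1, with 16 members above 0 and 20 below. Their median was -0.016, beside 0.0089 over all genes tested. DESeq2 called 0 members, where it called 193 genes higher and 271 lower in all. Limma-voom also called 0 members, where it called 98 genes higher and 137 lower. Gins2 was the 1 member with an unadjusted edgeR p under 0.05, where 18.1% of all genes had one.

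The size of change that these libraries leave possible was read from the 95% interval of each fold change, which is the log2 value plus or minus its SE times the t quantile of the edgeR fit. The interval lay within 1.5-fold in either direction for 31 of 36 members (86.1%), against 52.0% of all genes tested. The members were also more abundant than most genes, with a median of 88.6 CPM against 23.5 CPM over all tested, and 34 of them lay above that median. Their SEs had a median of 0.11, against 0.15 over all genes. The 5 members with wider intervals were Gins2, Pola1, Pold1, Rpa1 and Rrm1. Gins2 alone had an interval that reached beyond 2-fold, and 80.9% of all genes had theirs within that limit.

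**Figure D1:**
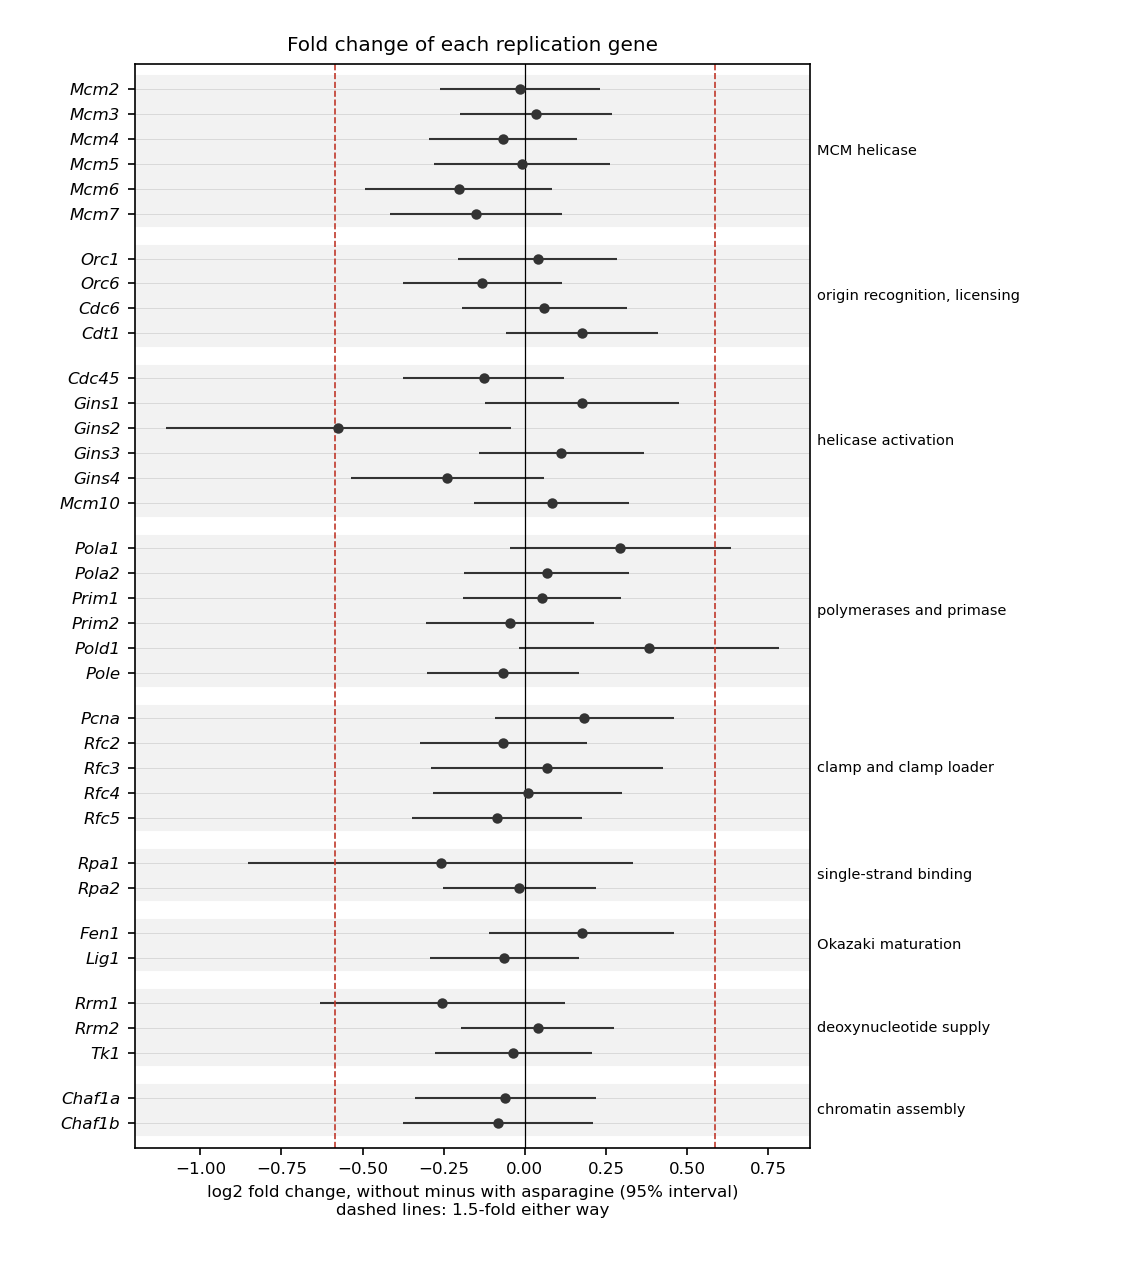
Log2 fold change of each of the 36 replication genes, without minus with asparagine, with its 95% interval (edgeR, 2 libraries per group); rows are grouped by role and dashed lines mark 1.5-fold either way. The points scatter around 0 from -0.57 (Gins2) to 0.38 (Pold1), and only Gins2 has an interval that leaves out 0 before adjustment.

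The MCM subunits, which form the motor of the replication fork, had close levels in the 2 media. Mcm3, with the highest mean CPM of the 6 over the 4 libraries, had 248 CPM in library A and 261 CPM in library B without asparagine, against 246 and 251 CPM with it. The groups overlapped, and the log2 fold change was 0.035 ± 0.099 (SE, n = 2 each, edgeR adjusted p = 0.876). Mcm6, which had the smallest p of the 6, had 208 and 252 CPM without asparagine, against 268 and 262 CPM with it. Both libraries without asparagine were below both with it, library A by far the more, and the log2 fold change was -0.20 ± 0.12 (interval -0.49 to 0.084, adjusted p = 0.409). It was -0.075 without library A and -0.35 without library B of that group (adjusted p = 0.538 and 5.735e-06). Mcm7 had 95.9 and 105 CPM without asparagine, against 105 and 118 CPM with it, which gave -0.15 ± 0.11 on the log2 scale (adjusted p = 0.505). Mcm2, Mcm4 and Mcm5 had log2 fold changes of -0.015, -0.067 and -0.0081, with SEs of 0.097 to 0.11. Per kilobase of the longest principal transcript, Mcm3 had 84.0 CPM without and 82.0 CPM with asparagine and Mcm6 79.0 and 91.0 CPM. The level per kilobase was 57.9 and 60.6 CPM for Mcm4, 50.3 and 50.6 CPM for Mcm5, 36.1 and 36.5 CPM for Mcm2, and 33.9 and 37.7 CPM for Mcm7. Without asparagine the 6 subunits thus spanned 33.9 to 84.0 CPM per kilobase, a wider range than the shift of any of them between media.

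The promoters of several members carry the E2F motif, a feature that the choice of genes did not use. Sequences from RefSeq (GRCm38.p6) were matched by symbol for 29 of the 36 genes, and the 250 bases before the annotated start were searched on both strands for TTTCGCGC or TTTGGCGC or TTTCCCGC or TTTGCCGC, counting overlapping matches. A match was present for 8 of the 29 (27.6%), against 4.02% of the 9406 tested genes and 2.16% of the 27025 genes with such a sequence. The pentamer CCAAT, searched on both strands, was present for 19 (65.5%), against 41.0% and 37.5%. The 8 genes were Mcm5, Mcm6, Mcm7, Orc1, Cdc6, Gins3, Pola1 and Rfc3. Their log2 fold changes had a median of 0.05 and a range of -0.20 to 0.29, and those of the 21 without a match a median of -0.015 and a range of -0.26 to 0.38. The stretches of 4 of these genes follow, 5′ to 3′ on the gene's strand and ending at the base before the annotated start, with the matches in capitals. They are shown because Mcm5 and Mcm6 hold overlapping matches on opposite strands and because Orc1 and Cdc6 act at the step before them.
Mcm5 (chr8:75109259-75109508, plus strand): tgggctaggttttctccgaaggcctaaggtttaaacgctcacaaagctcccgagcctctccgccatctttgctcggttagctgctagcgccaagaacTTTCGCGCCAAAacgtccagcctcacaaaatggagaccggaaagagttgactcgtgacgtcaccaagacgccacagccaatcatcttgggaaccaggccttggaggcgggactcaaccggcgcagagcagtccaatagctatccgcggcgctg
Mcm6 (chr1:128359706-128359955, minus strand): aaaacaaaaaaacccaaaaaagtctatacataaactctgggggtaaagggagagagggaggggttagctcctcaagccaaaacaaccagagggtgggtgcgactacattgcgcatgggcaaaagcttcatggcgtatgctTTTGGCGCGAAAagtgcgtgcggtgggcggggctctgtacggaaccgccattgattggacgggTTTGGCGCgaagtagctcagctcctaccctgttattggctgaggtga
Orc1 (chr4:108579204-108579453, plus strand): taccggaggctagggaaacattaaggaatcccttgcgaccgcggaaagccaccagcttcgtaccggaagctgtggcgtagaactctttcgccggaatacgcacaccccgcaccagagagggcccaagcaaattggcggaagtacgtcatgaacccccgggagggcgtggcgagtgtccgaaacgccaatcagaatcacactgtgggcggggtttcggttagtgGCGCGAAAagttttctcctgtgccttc
Cdc6 (chr11:98907901-98908150, plus strand): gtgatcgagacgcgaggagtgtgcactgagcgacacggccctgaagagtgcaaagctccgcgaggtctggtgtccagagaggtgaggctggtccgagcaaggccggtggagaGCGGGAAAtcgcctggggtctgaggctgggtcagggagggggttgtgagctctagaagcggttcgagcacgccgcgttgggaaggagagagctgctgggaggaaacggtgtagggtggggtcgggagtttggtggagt
The first capital run of Mcm6 and that of Mcm5 each hold 2 of the motifs, one per strand, and Mcm6 has a further match 47 bases before its start. The presence of these letters does not show that a factor was bound. The starts used here are those of RefSeq. By GENCODE M21 the stretches of Cdc6 and Mcm7 lie inside the gene, and the matches of Orc1, Gins3 and Rfc3 lie past the gene start.

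Among the genes that load the helicase, Cdt1, whose protein brings MCM rings to origins, had 86.6 and 82.8 CPM without asparagine, against 74.9 and 75.1 CPM with it. The groups did not overlap, but the log2 fold change of 0.18 ± 0.099 was not called (interval -0.058 to 0.41, edgeR adjusted p = 0.390). Orc6, an origin recognition subunit, had 87.3 and 94.6 CPM without asparagine, against 102 and 97.3 CPM with it. Its difference ran the other way, at -0.13 ± 0.10 (adjusted p = 0.531). Cdc6, the ATPase that recruits CDT1 and the helicase, had 89.6 and 97.1 CPM without asparagine, against 85.7 and 93.4 CPM with it, and the largest origin subunit gene, Orc1, had 65.6 and 61.8 CPM, against 63.7 and 60.3 CPM. Both overlapped between the media, with log2 fold changes of 0.06 and 0.04.

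The helicase activators held the member with the largest difference. Gins2, a subunit of the GINS tetramer, had 30.6 CPM in library A and 52.1 CPM in library B without asparagine, against 61.4 and 62.1 CPM with it. Both libraries without asparagine were lower, but they differed from each other 1.70-fold, more than library B differed from those with asparagine. The log2 fold change was -0.57 ± 0.22 (interval -1.11 to -0.043, edgeR adjusted p = 0.247, unadjusted p = 0.0378). It was -0.25 ± 0.093 without library A (adjusted p = 0.0502) and -1.01 ± 0.10 without library B of that group (adjusted p = 1.912e-20). Without the filter on low counts the test called it lower (-0.58, adjusted p = 0.00113), where 719 genes were called lower, against 138 in the main fit. In GENCODE M21, exons of Gse1 on the opposite strand overlap 2758 of the 4097 exonic bases of Gins2. Gse1, which has a role in chromatin, had 24.2 and 27.7 CPM without asparagine, against 25.4 and 22.2 CPM with it, and was not called (0.13 on the log2 scale, adjusted p = 0.641). Gins2 lies on chromosome 8 from 120578633 to 120589304.

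The other 3 GINS genes did not share one direction. Gins4 had 43.1 and 52.4 CPM without asparagine, against 55.6 and 57.2 CPM with it, which gave -0.24 ± 0.13 on the log2 scale (adjusted p = 0.363). This was -0.11 with library A of the group without asparagine left out, and -0.39 with its library B left out (adjusted p = 0.508 and 4.04e-04). Gins1 had 25.8 and 22.9 CPM without asparagine, against 20.6 and 22.4 CPM with it (0.18 ± 0.13, adjusted p = 0.490), and Gins3 had 35.2 and 33.4 CPM, against 31.9 and 31.5 CPM (0.11 ± 0.11, adjusted p = 0.608). In each of the 3 the groups did not overlap, as was the case for 21 of the 36 members, 8 higher and 13 lower. Over all genes tested, 26.1% were separated in the higher and 26.4% in the lower direction (52.5% in all). Cdc45, which completes the active helicase with GINS, had 34.5 and 35.8 CPM without asparagine, against 38.9 and 37.9 CPM with it (-0.13 ± 0.11, adjusted p = 0.548). Mcm10, which helps to fire the loaded helicase, had 90.8 and 97.3 CPM, against 88.4 and 89.2 CPM (0.083 ± 0.10, adjusted p = 0.690).

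**Figure D2:**
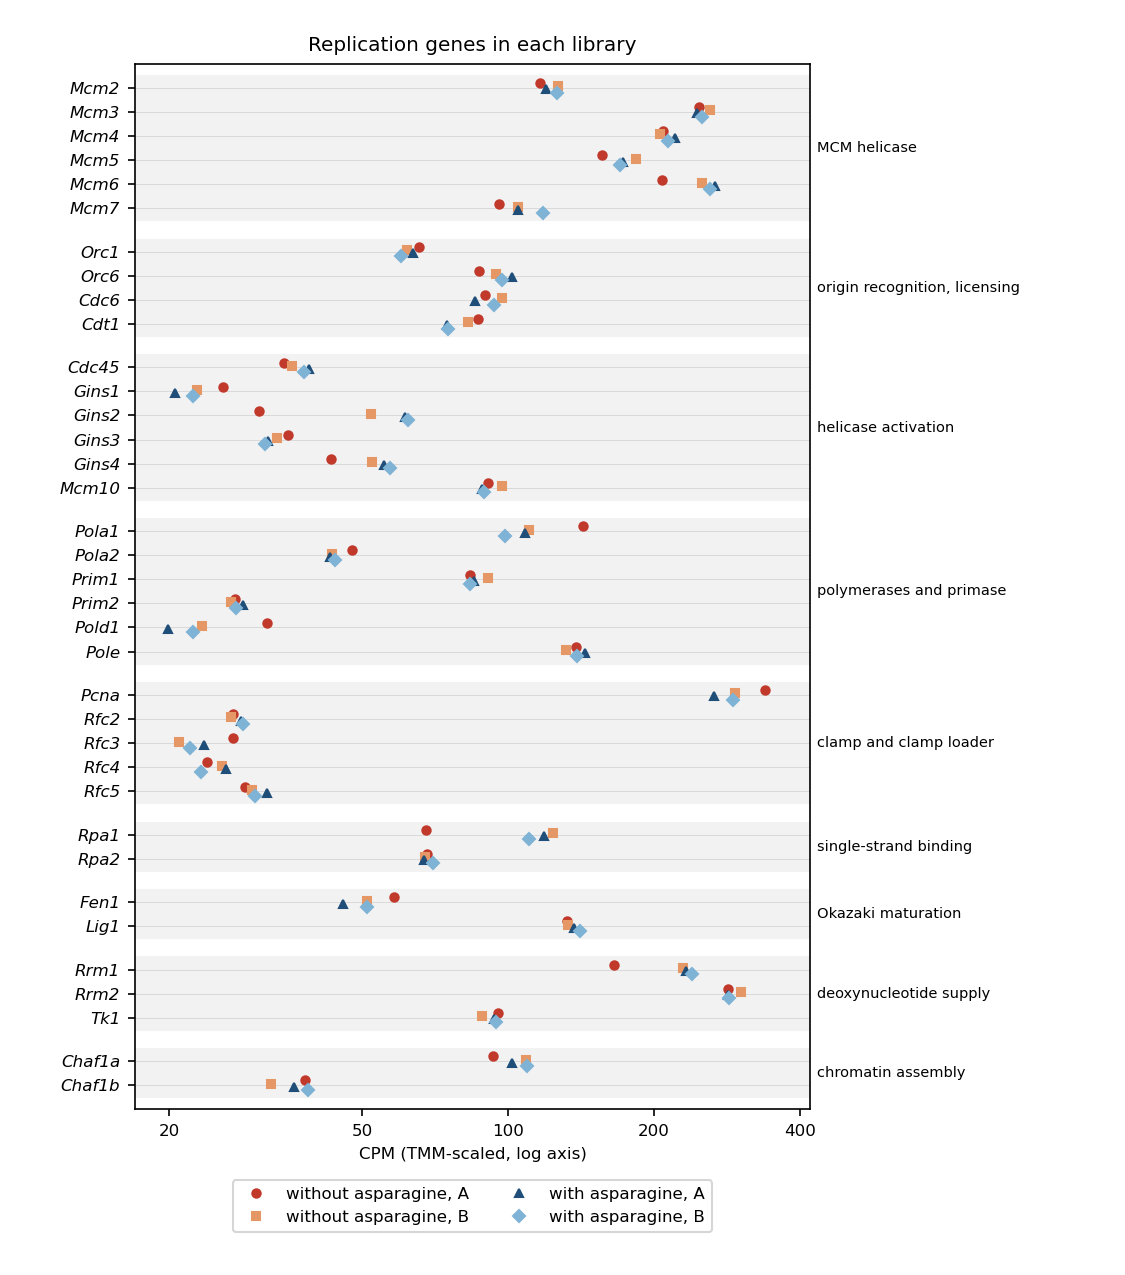
CPM of each replication gene in each of the 4 libraries (log axis; circles and squares are libraries A and B without asparagine, triangles and diamonds A and B with it). Most genes have the 4 libraries close together, and Gins2, Rpa1, Rrm1, Pold1 and Pola1 show library A without asparagine away from the rest.

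Among polymerase and primase genes, Pold1 and Pola1 had the highest fold changes of all members, and neither passed. Pold1, the catalytic subunit of polymerase delta, which makes most of the lagging strand, had 31.9 and 23.4 CPM without asparagine, against 19.9 and 22.4 CPM with it. The log2 fold change was 0.38 ± 0.17 (interval -0.019 to 0.78, edgeR adjusted p = 0.295), and it was 0.14 ± 0.12 once library A of that group was left out (adjusted p = 0.5003). Pola1, the catalytic subunit of polymerase alpha, had 143 and 111 CPM without asparagine, against 108 and 98.4 CPM with it. The log2 fold change of 0.29 ± 0.14 (interval -0.045 to 0.63, adjusted p = 0.333) was 0.097 ± 0.080 when that library was left out (adjusted p = 0.476). Both genes were highest in library A without asparagine, and its library B lay near those with asparagine. Pole, the catalytic subunit of polymerase epsilon on the leading strand, had 138 and 132 CPM without asparagine, against 144 and 139 CPM with it (-0.067 ± 0.099, adjusted p = 0.745). Pola2, the regulatory subunit of polymerase alpha, had a log2 fold change of 0.067, and the primase genes Prim1 and Prim2, which make the RNA primer, had 0.052 and -0.046, all with SEs of 0.10 to 0.11.

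Pcna, the gene of the clamp that holds polymerases on DNA, had the highest mean level of all members over the 4 libraries (298 CPM). It had 339 and 295 CPM without asparagine, against 267 and 292 CPM with it, a log2 fold change of 0.18 ± 0.12 (interval -0.092 to 0.46, edgeR adjusted p = 0.436). Library A without asparagine was the highest, and library B of that group was close to library B with asparagine. Per kilobase Pcna had 209 CPM without and 184 CPM with asparagine, followed by Rrm2 with 134 and 130 CPM. The clamp loader genes were lower, between 5.40 CPM per kilobase for Rfc2 and 20.2 for Rfc4 without asparagine, and 5.66 and 20.1 with it. These levels depend on the transcript length used, which was 4995 bases for Rfc2 and 1228 for Rfc4. Log2 fold changes were -0.067 for Rfc2, 0.068 for Rfc3, 0.0087 for Rfc4 and -0.086 for Rfc5, with adjusted p between 0.705 and 0.977.

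The single-strand binding genes showed how 1 library shaped a value. Rpa1, which encodes the largest RPA subunit, had 67.8 CPM in library A and 124 CPM in library B without asparagine, against 119 and 110 CPM with it. Library A was the lowest of the 4 and library B the highest, a 1.82-fold difference within the group, and the interval of the log2 fold change ran from -0.85 to 0.33 (-0.26 ± 0.25, edgeR adjusted p = 0.611). The log2 fold change was 0.11 ± 0.078 without library A, so its sign turned, and -0.76 ± 0.086 without library B of that group (adjusted p = 0.407 and 3.625e-17). Rpa2, which encodes a smaller subunit of the same complex, had 68.1 and 67.4 CPM without asparagine, against 67.1 and 70.0 CPM with it, and spread little (-0.017 ± 0.10, adjusted p = 0.943).

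Fen1, the nuclease that trims Okazaki fragments, had 58.2 and 51.3 CPM without asparagine, against 45.6 and 51.2 CPM with it, a log2 fold change of 0.17 ± 0.12 (edgeR adjusted p = 0.469). The groups did not overlap, but the libraries B of both media had nearly the same value. Of its 2422 exonic bases, 2039 overlap exons of Tmem258 or Gm10143 on the opposite strand. Tmem258, which encodes a small membrane protein, had 17.5 and 11.3 CPM without asparagine, against 10.1 and 10.9 CPM with it (adjusted p = 0.329). Lig1, the ligase that seals the fragments, had 133 CPM in each library without asparagine, against 137 and 141 CPM with it (-0.063 ± 0.097, adjusted p = 0.757). In all, 13 of the 36 members have exons that overlap those of a gene on the opposite strand, and no source states whether counting used the strand.

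Of the genes for deoxynucleotide supply, none was called. Rrm2, the small subunit of ribonucleotide reductase, whose level rises in S phase, had 284 and 303 CPM without asparagine, against 284 and 287 CPM with it. It showed no called difference (0.04 ± 0.10, interval -0.20 to 0.28, edgeR adjusted p = 0.856). Rrm1, the large subunit, had 166 and 230 CPM without asparagine, against 233 and 239 CPM with it. Library A was again the low one, and the log2 fold change of -0.25 ± 0.16 (interval -0.63 to 0.12, adjusted p = 0.428) was -0.04 ± 0.070 without it (adjusted p = 0.780) and -0.52 ± 0.073 without library B of that group (adjusted p = 3.981e-11). Tk1, the thymidine salvage kinase, had 95.4 and 88.3 CPM without asparagine, against 93.6 and 94.5 CPM with it (-0.035 ± 0.10, adjusted p = 0.879). In Rrm1 both libraries without asparagine were below both with it, while Rrm2 and Tk1 overlapped between the media. The CAF-1 subunits, which bring histones to new DNA, also overlapped. Chaf1a had 93.3 and 109 CPM without asparagine, against 102 and 109.5 CPM with it, and Chaf1b had 38.2 and 32.5 CPM, against 36.2 and 38.6 CPM. Their log2 fold changes were -0.061 ± 0.12 and -0.083 ± 0.12 (adjusted p = 0.810 and 0.746).

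Most of the spread among the replication genes lay within the cells without asparagine. The size of the log2 difference between libraries A and B had a median of 0.12 over the 36 members without asparagine and 0.051 with it, beside 0.23 and 0.099 over all genes tested. In the cells with asparagine no member differed by more than 1.2-fold between the libraries, where 2103 of all 12843 genes tested did. Without asparagine 8 members did, where 5606 of all genes did, so the contrast between media is not particular to the members. The 8 members were Rpa1, Gins2, Rrm1, Gins4 and Mcm6, lower in library A, and Pold1, Pola1 and Rfc3, higher in it. Library A without asparagine lay outside the range of the other 3 libraries for 24 of 36 members (66.7%), against 71.8% of all genes, so the members were not more affected than genes at large. It was the library with the largest shares of unannotated reads and of Rn45s, and the part of either in these values was not tested.

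**Figure D3:**
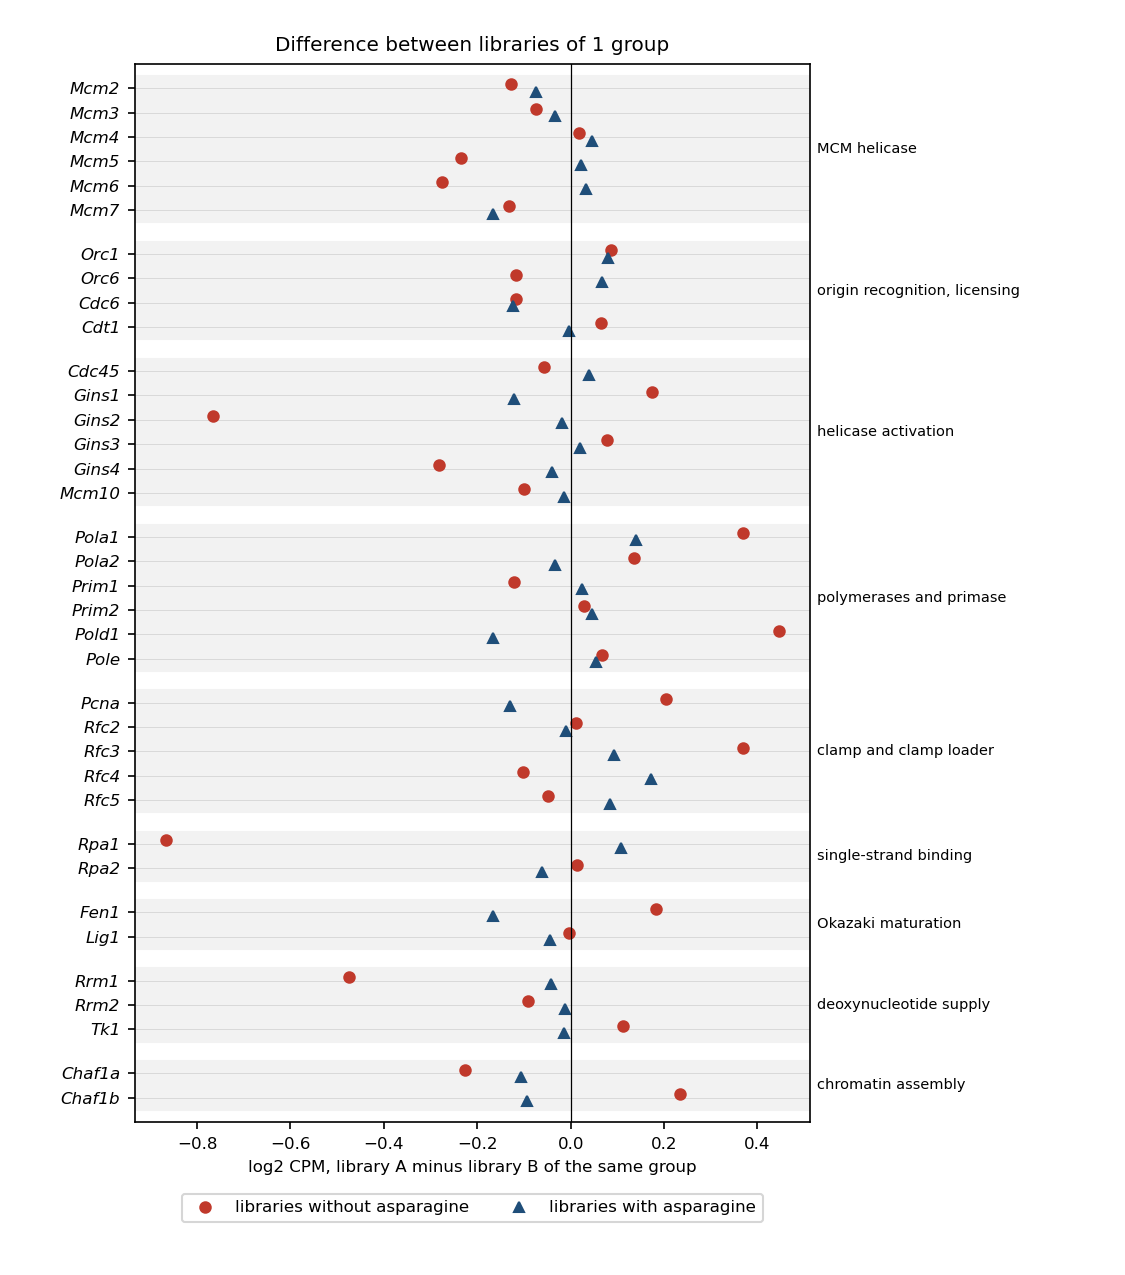
Log2 CPM of library A minus library B for each replication gene, in the cells without asparagine (circles) and with asparagine (triangles). The triangles stay between -0.17 and 0.17, while circles reach -0.87 (Rpa1) and 0.45 (Pold1).

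Leaving out a library showed the same from the side of the test. With library A of the group lacking asparagine left out, 0 of 36 members were called, where 15.6% of all genes were (2051 of 13121, 6.94% higher and 8.70% lower). The member with the largest log2 fold change in size in that fit was Gins2 (-0.25). With library A as the single library of its group, that is without library B, 11 members were called, 5 higher and 6 lower, where 40.4% of all genes were (18.9% higher and 21.6% lower). The higher ones were Pold1 (0.59), Pola1 (0.47), Pcna (0.28), Fen1 (0.26) and Cdt1 (0.205), and the lower ones Gins2 (-1.01), Rpa1 (-0.76), Rrm1 (-0.52), Gins4 (-0.39), Mcm6 (-0.35) and Mcm7 (-0.22), each value a log2 fold change. In each of these fits the lone library was taken to vary like the pair of the other medium. Without either library with asparagine 0 members were called, where 0.438% (without A) and 0.363% (without B) of all genes were called.

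**Figure D4:**
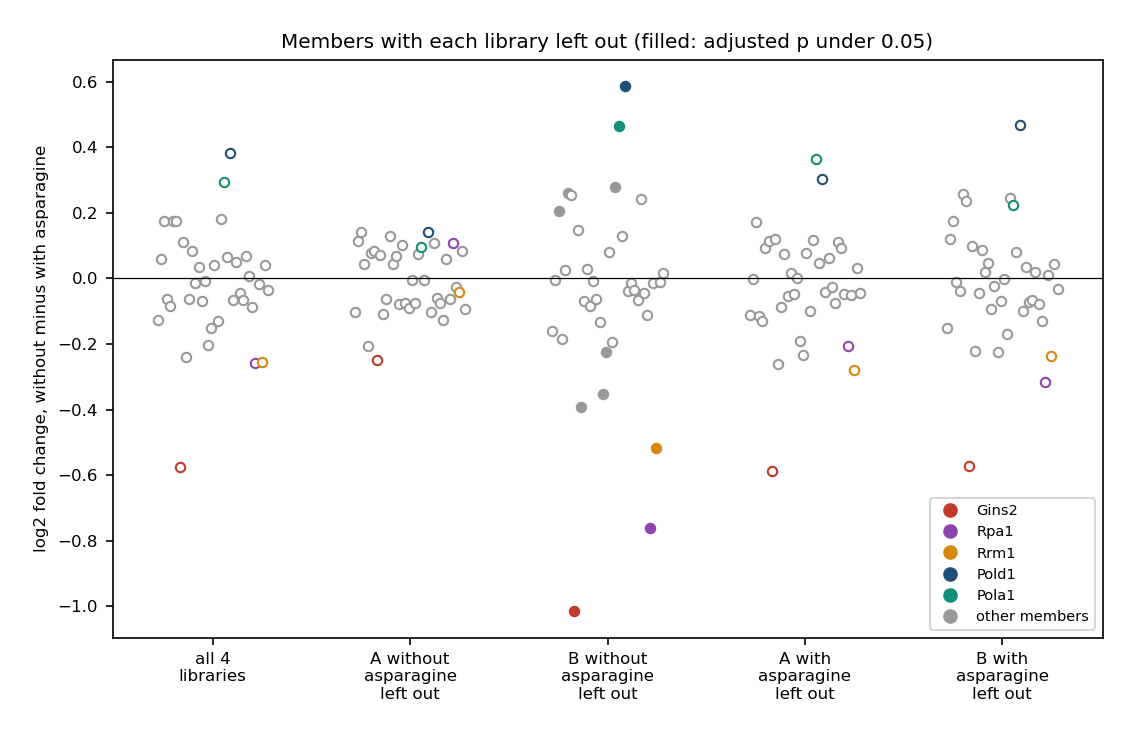
Log2 fold change of the 36 members with all 4 libraries and with each library left out in turn (filled points, adjusted p under 0.05). Filled points appear only where library B without asparagine was left out, 11 in number, and Gins2, Rpa1 and Pold1 spread most there.

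Of 78 other genes of replication and its control, 0 were called higher without asparagine and 1 lower, where 0.771% and 1.07% of all genes tested were, so the count does not set them apart. The 1 gene was Tfdp2, which encodes DP-2, a partner that E2F proteins need to bind DNA, and it was 1 of 13 in the list of E2F and RB family genes. Tfdp2 had 37.2 and 35.6 CPM without asparagine, against 56.9 and 56.8 CPM with it. Both libraries of each medium lay close together and the groups were well apart, with a log2 fold change of -0.64 ± 0.10 (edgeR adjusted p = 0.0361). Leaving out library A or B of the group without asparagine gave -0.68 and -0.61, both called. The call was lost with upper quartile scaling (-0.59 ± 0.11, adjusted p = 0.0516) and without library A or B with asparagine (-0.64 ± 0.21 and -0.65 ± 0.21, adjusted p = 0.457 and 0.453). Tfdp2 lies on chromosome 9 from 96196275 to 96323646.

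Other genes of the E2F and RB list are given here after their values were seen. E2f8, an atypical E2F that represses targets, had 319 and 336 CPM without asparagine, against 442 and 426 CPM with it, a log2 difference of -0.41 ± 0.10 (adjusted p = 0.116). Without the filter on low counts it was called (-0.41, adjusted p = 0.0253), where 615 genes were called higher and 719 lower, against 99 and 138 in the main fit. DESeq2's Wald test, limma-voom and upper quartile scaling did not call it (adjusted p = 0.0664, 0.108 and 0.132). With library A or B of the group without asparagine left out, the log2 difference of E2f8 was -0.37 and -0.45. Its close relative E2f7 had 114 and 110.2 CPM without asparagine, against 95.8 and 96.1 CPM with it, so it was separated in the opposite direction (0.22 ± 0.098, adjusted p = 0.288). The retinoblastoma family genes Rb1, Rbl1 and Rbl2 were all lower in both libraries without asparagine, with log2 fold changes of -0.21, -0.18 and -0.34 and adjusted p of 0.348, 0.417 and 0.172. E2f6 was also lower in both (-0.22, adjusted p = 0.355). Of the 13 genes, 6 were separated in the lower and 1 in the higher direction, where 26.4% and 26.1% of all genes tested were. The activator E2f1 had 31.2 and 27.3 CPM without asparagine, against 25.5 and 32.4 CPM with it (adjusted p = 0.971), and Tfdp1, which encodes the main partner DP-1, differed by 0.022 on the log2 scale (adjusted p = 0.927). The median of the 13 genes was -0.016.

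**Figure D5:**
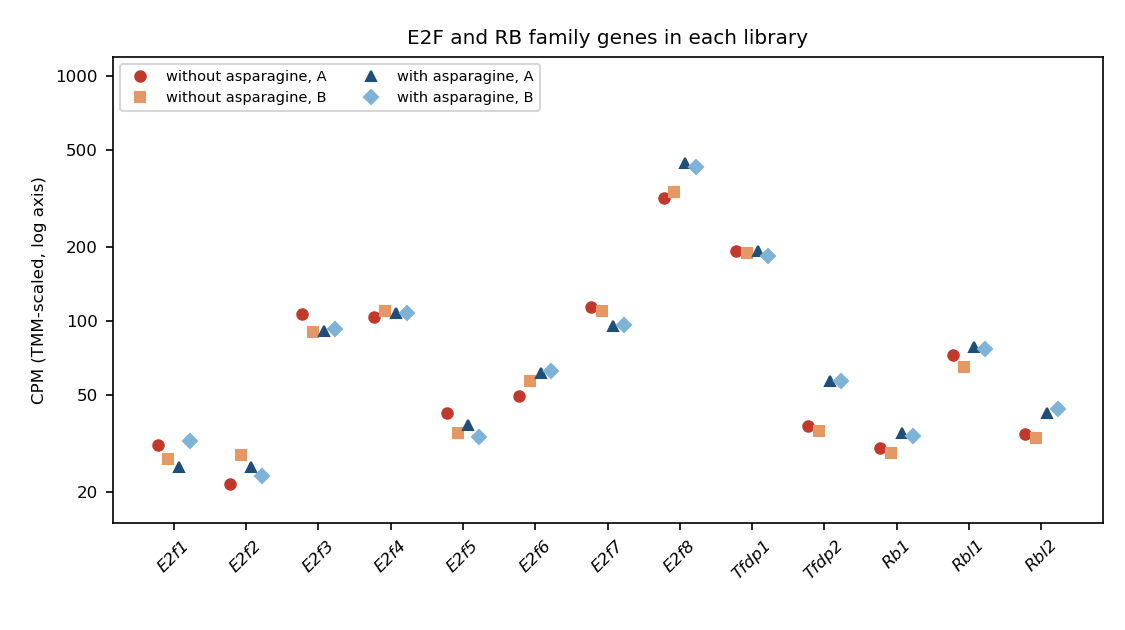
CPM of the 13 E2F and RB family genes in each library (log axis; symbols left to right are libraries A and B without asparagine, then A and B with it). Tfdp2, E2f8, E2f6, Rb1, Rbl1 and Rbl2 are lower in both libraries without asparagine, and E2f7 is higher in both. Tfdp2 is at 37.2 and 35.6 against 56.9 and 56.8 CPM, and E2f1, E2f4 and Tfdp1 overlap.

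The remaining 4 lists held 0 called genes in the main edgeR fit, where 1.85% of all genes were called. Each had 1 gene at an unadjusted p under 0.05, where 18.1% of all genes were. Among 29 other subunits of the replisome and origin complexes, 20 had a log2 fold change above 0 and the median was 0.042. Tipin, a fork protection gene, had the smallest p, with 124 and 137 CPM without asparagine, against 174 and 159 CPM with it (-0.35 ± 0.11, edgeR adjusted p = 0.172). Among 13 genes that control licensing and firing the median was 0.12. Topbp1, which links firing kinases to the helicase, had 381.5 and 485 CPM without asparagine, against 609 and 569.7 CPM with it (-0.44 ± 0.14, adjusted p = 0.174). Among 13 partners in deoxynucleotide handling and chromatin the median was 0.05, and Dctpp1, which removes unwanted deoxynucleotides, had 37.7 and 31.0 CPM without asparagine, against 22.6 and 25.7 CPM with it (0.50 ± 0.14, adjusted p = 0.146). Among 10 checkpoint genes the median was 0.12, and the mitotic brake Wee1 had 40.3 and 62.7 CPM without asparagine, against 74.7 and 68.5 CPM with it (-0.47 ± 0.20, adjusted p = 0.274). In these 4 genes both libraries of 1 medium lay above both of the other, as in 52.5% of all genes tested. They were picked for the smallest p of their lists, which favours such a gap, so it adds no support. In Wee1 library A without asparagine was far below library B.

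Some other settings called some of these 4 genes, in the same direction. DESeq2's Wald test called none of them (adjusted p from 0.0957 for Topbp1 to 0.217 for Wee1). Neither did limma-voom, DESeq2's size factors in edgeR, upper quartile scaling or a filter of 5 CPM. Without the filter on low counts the calls were Topbp1 (-0.45, adjusted p = 0.0112), Dctpp1 (0.50, adjusted p = 0.0144) and Wee1 (-0.48, adjusted p = 0.0117), but not Tipin. That setting called 615 genes higher and 719 lower in all, against 99 and 138 in the main fit. With library A of the group lacking asparagine left out, Tipin (-0.29), Topbp1 (-0.28) and Dctpp1 (0.35) were called, at adjusted p of 0.00231, 1.738e-04 and 0.0155, and Wee1 (-0.19, adjusted p = 0.136) was not. With its library B left out all 4 were called, at -0.43 for Tipin, -0.63 for Topbp1, 0.635 for Dctpp1 and -0.83 for Wee1. Those 2 fits called 15.6% and 40.4% of all genes.

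Mitosis genes, taken for comparison because they peak later in the cycle, also had 0 of 20 called in the main fit, where 1.85% of all genes were. At an unadjusted edgeR p under 0.05 there were 2 of them, in opposite directions, where 18.1% of all genes were. Their median was -0.048, with 7 above 0 and 13 below. Ccnb2, a mitotic cyclin, had the smallest p, with 88.1 and 78.8 CPM without asparagine, against 108.5 and 109.6 CPM with it (-0.39 ± 0.11, edgeR adjusted p = 0.144). Without the filter on low counts Ccnb2 was called (-0.39, adjusted p = 0.0493), where 615 genes were called higher and 719 lower. DESeq2's Wald test, limma-voom and upper quartile scaling did not call it (adjusted p = 0.146, 0.138 and 0.198). With library A or B of the group without asparagine left out, its log2 fold change was -0.47 and -0.31. The difference between the replication and mitosis lists was not tested. In bulk RNA, fewer cells in S phase and less transcript per cell cannot be told apart, and the table holds no measure of cell number or of DNA synthesis.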

How the data were processed

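RNA sequencing of 4 libraries was used, 2 per medium. Per the submitters' processing notes, Bowtie2, HTSeq and build mm10 were used, and per the labels' protocols RNA was purified with a Qiagen kit and amplified with the NuGEN Ovation V2 kit. No source states versions, strand or annotation. The authors deposited raw counts per gene symbol. The 5 HTSeq summary rows, 60.1% to 70.0% of reads, stayed out of totals and tests.

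Counts passing filterByExpr (minimum 10, total 15; 12843 genes) were TMM-scaled and tested with edgeR 4.0.16 (quasi-likelihood, no term for the letter; R 4.3.3), Benjamini-Hochberg over all genes, threshold 0.05. The SE is the fold change divided by the square root of F. Alternatives used DESeq2 1.42.0, limma 3.58.1, other scalings and filters, a block and left-out libraries, and the pipeline was tested on simulated data. Whether A and B were separate cultures is not stated, so the p-values cover only the spread among these libraries, possibly a technical one. Members and lists were chosen with earlier results of these data known. All members are named; from each other list, called genes or the one with the smallest p, and further E2F and RB genes chosen after their values were seen. Levels per kilobase use the longest principal transcript in GENCODE M21, and positions are GRCm38.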

Additional observations from a re-analysis of the deposited data

How the results depend on the processing

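Of the 12 alternatives, 9 left 0 members called. DESeq2's Wald test called 193 higher and 271 lower genes in all against 99 and 138 in edgeR, and no low-count filter gave 615 and 719 with 1 member (Gins2, lower). The replicate block gave 344 and 472 and again 1 member, Gins2 (-0.62, adjusted p = 0.0176), and also called Dctpp1 (0.50, adjusted p = 0.0447); no label says whether the letters pair the libraries, and across genes the A minus B differences of the 2 media correlated at 0.115. With a library left out, genes called ranged from 24 to 2502 higher and from 24 to 2861 lower, and members called from 0 to 5 higher, 0 to 6 lower and 0 to 11 in all. The members' median stayed between -0.033 and 0.031 under all 12. Upper quartile scaling turned the sign of Mcm2 (0.031), Mcm5 (0.037), Prim2 (0.0023), Rpa2 (0.031) and Tk1 (0.014). Leaving out libraries turned the sign of 15 members, which the main fit had not called. Their ranges were -0.084 to 0.045 (Mcm2), -0.0062 to 0.069 (Mcm3), -0.13 to 0.10 (Mcm5), -0.0048 to 0.080 (Orc1) and -0.0040 to 0.12 (Cdc6). Further ranges were -0.0047 to 0.13 (Pola2), -0.014 to 0.11 (Prim1), -0.13 to 0.24 (Rfc3), -0.079 to 0.093 (Rfc4) and -0.76 to 0.11 (Rpa1). The last were -0.050 to 0.010 (Rpa2), -0.0095 to 0.083 (Rrm2), -0.094 to 0.017 (Tk1), -0.18 to 0.045 (Chaf1a) and -0.21 to 0.026 (Chaf1b). The cause of these turns was not tested. Members had 439 to 8744 reads per library, and the share of depth in their spread was not tested.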
